A study of Mus musculus with 143 samples.

Results

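RNA polymerase II (Pol II) on chromatin was compared between oocytes with and without the RNA exosome ribonuclease DIS3. The comparison rests on 6 of the 143 samples of the series: the 3 peak lists labelled pols2s5_adultGV_dis3cKO (Dis3 cKO below) and the 3 lists labelled pols2s5_adultGV_ctr (control below), chosen by their titles alone. All 6 libraries are CUT&Tag, in which an antibody tethers a transposase that cuts and tags the DNA around its target. Each was made from a pool of fresh, unfixed oocytes dissected from ovaries of adult mice at the germinal vesicle (GV) stage, that is, before meiosis resumes. The genotypes are given as control or dis3cKO, and the mutant mice are said to have been built with CRISPR/Cas9. The labels give neither the Cre driver, nor the alleles carried by the controls, nor the age in days, nor the number of oocytes per pool. The antibody is named only by the shorthand S2 and S5 in the titles. The labels do not say that the 3 libraries of a group came from separate animals, so p-values measure only the spread between these samples, which may be technical.

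Pol II carries a long tail on its largest subunit that is phosphorylated at one set of serines as transcription starts and at another as it proceeds through the gene, so antibodies to the phosphorylated forms mark polymerase that has been engaged. DIS3 is a catalytic subunit of the RNA exosome, which degrades and trims RNA, including transcripts from intergenic and antisense transcription. Growing oocytes transcribe strongly, and fully grown GV oocytes fall silent before they mature. The title of the series links pervasive transcription in oocytes without exosome RNases to sequestration of Pol II. The question that these 6 lists bear on is whether Pol II covers more, or other, parts of the genome without DIS3.

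The genotype and cell labels were checked first. Dis3 itself was compared in RNA from other oocytes of the same 2 genotypes. After removal of ribosomal RNA (RiboMinus), Dis3 had 8.72 to 20.5 CPM (counts scaled to a library total of 1000000; median 15.3, n = 8) in control oocytes and 0.684 to 3.60 CPM (median 1.88, n = 8) in Dis3 cKO oocytes, with no overlap and a log2 difference of -3.13 (SE 0.33, edgeR adjusted p 2.46e-06). The titles of these RiboMinus libraries name 2 IDs per group with 4 libraries each, so the libraries are not independent, and the SEs and p-values over 8 libraries given here and below are too small if an ID is an animal. With counts summed per ID, an alternative chosen after seeing the data, the Dis3 difference was -3.17 (SE 0.46, edgeR adjusted p 0.101), and 0 of 15334 genes passed (edgeR, 2957 or 19.3% at an unadjusted p under 0.05, lowest adjusted p 0.0898), against 4305 over libraries. RiboMinus differences are therefore given below as values over libraries. In poly(A) RNA the ranges were 9.91 to 18.8 CPM (median 12.6, n = 8) and 0.704 to 6.91 CPM (median 2.99, n = 15). The poly(A) titles number the libraries without an ID, so whether these share animals cannot be told. The RNA oocytes are not those of the Pol II lists, where the Dis3 gene had 0, 0.752 and 0 kb of peaks in the control lists and 0, 0 and 0.942 kb in the Dis3 cKO lists. Of 21 measured oocyte genes, 14, 11 and 11 had a peak in the control lists and 15, 14 and 17 in the Dis3 cKO lists, where 18.9%, 26.9% and 24.7% against 42.6%, 26.2% and 49.9% of all 27025 genes had one. With the same number of peaks kept in every list the oocyte counts were 14, 8 and 11 against 10, 10 and 13. Of 12 measured granulosa and cumulus genes, which mark the somatic cells around the oocyte, 1, 3 and 3 and then 3, 3 and 4 had a peak, and 1, 3 and 2 against 2, 3 and 2 at equal numbers. Fshr, Foxl2, Amhr2, Inha, Inhba, Inhbb, Gja1 and Ptgs2 had no covered base in any of the 6 lists, whereas Wnt4 had a peak in all 6, Nr5a2 and Cyp19a1 in all but control list 1 and Kitl in Dis3 cKO list 3. Nr5a2 was covered over 0, 2.08 and 2.08 kb in control and 8.85, 5.57 and 10.8 kb in Dis3 cKO, and Cyp19a1 over 0, 0.457 and 0.194 kb against 0.994, 1.09 and 1.9 kb. Of 5 blood genes, 1 had a peak in Dis3 cKO list 3 and none had one in the others. Their part in the results below was not tested.

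The lists differ in how weak their weakest peaks are, and this goes with most differences in peak number. Each list gives the total signal of every peak, which is the authors' summed coverage over the peak in reads sampled to the same 3000000 per library. The lowest total signal was 3002, 1869 and 1928 in control lists 1, 2 and 3, against 102, 1890 and 102 in Dis3 cKO lists 1, 2 and 3. Dis3 cKO lists 1 and 3 therefore reach far below every control list, and Dis3 cKO list 2 ends where control lists 2 and 3 end. In the 3 Pol II lists of control oocytes labelled p20 the lowest signals were 103, 102 and 102, and those lists hold 74287, 82446 and 80765 peaks. No peak of a control list lay below 1869, whereas 21362 peaks (24.1%) of Dis3 cKO list 1 and 44966 (36.7%) of Dis3 cKO list 3 did, and these covered 10.6 and 22.0 Mb. Peaks whose maximum coverage was 3 or less made up 12.8% and 15.1% of Dis3 cKO lists 1 and 3 and at most 0.304% of any other adult list. The threshold used for each list is not given in the sources used here, so the lowest signal of a list and the genotype cannot be told apart.

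Peak number spanned a wider range in the Dis3 cKO lists. The control lists held 19697, 35843 and 30892 peaks, and the Dis3 cKO lists 88697, 30311 and 122606. Dis3 cKO list 2 lay inside the control range while the other 2 lay above it. The means were 28811 ± 8272 (SD, n = 3) and 80538 ± 46685 (n = 3), and the log2 difference of 1.31 (2.47-fold, from the mean log2 counts) did not exceed the spread between lists (2-sided exact permutation test, p = 0.3, where 3 against 3 cannot go below 0.10). With the same floor for all lists, a total signal of at least 3002, the counts became 19697, 32324 and 28576 in control and 47609, 27967 and 43004 in Dis3 cKO, and the log2 difference fell to 0.55 (1.47-fold, exact permutation p = 0.3).

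**Figure D1:**
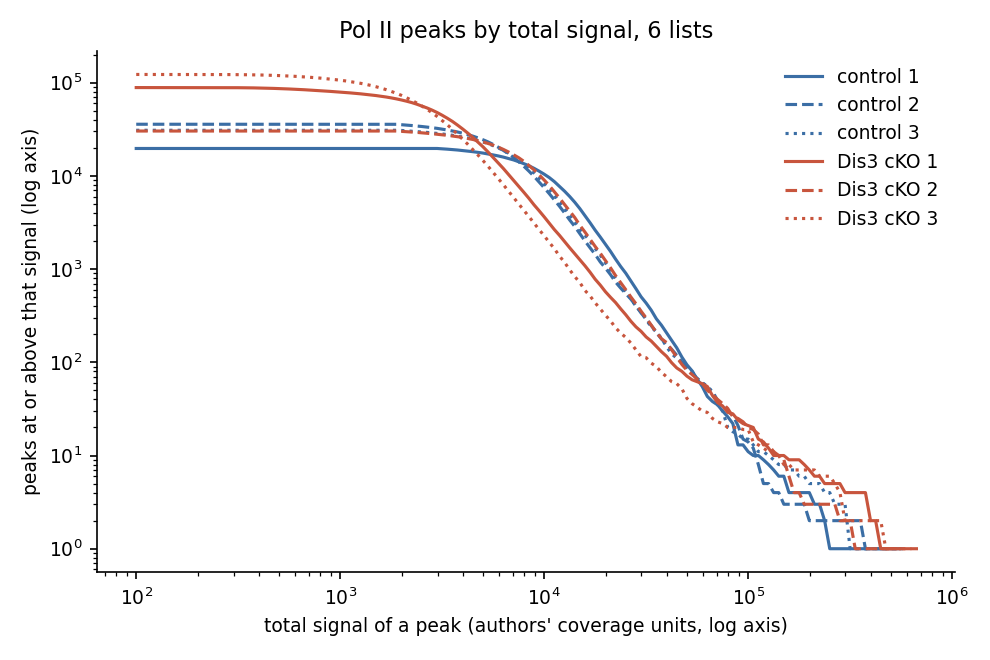
Number of peaks at or above a given total signal (both axes logarithmic) in each of the 6 adult Pol II lists, control and Dis3 cKO. The curves of Dis3 cKO lists 1 and 3 run on to a signal of 102, where the other lists stop between 1869 and 3002, and between a total signal of 10000 and 30000 they lie below the other 4.

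The length of genome covered followed the peak number. Peaks covered 13.3, 24.3 and 21.1 Mb in the control lists and 57.8, 20.7 and 78.8 Mb in the Dis3 cKO lists, with means of 19.6 ± 5.68 (SD, n = 3) and 52.5 ± 29.4 Mb (n = 3) and a log2 difference of 1.26 (exact permutation p = 0.3). When only the 19697 peaks of highest signal were kept in every list, the same number as control list 1 holds, the lists covered 13.3, 14.9 and 14.6 Mb in control and 19.1, 14.4 and 21.2 Mb in Dis3 cKO (log2 difference 0.34, exact permutation p = 0.3). Dis3 cKO list 2 again lay within the control range.

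Peak width changed its order with the floor. As deposited, median widths were 613, 611 and 617 bp in control and 582, 623 and 571 bp in Dis3 cKO (log2 difference -0.05, exact permutation p = 0.4). With the common floor they were 613, 616 and 622 bp against 660, 627 and 751 bp, so that every Dis3 cKO list had wider peaks than every control list (log2 difference 0.13, exact permutation p = 0.1, the smallest this design allows). At equal peak numbers they were 613, 659 and 650 bp against 841, 649 and 948 bp (0.33, exact permutation p = 0.3). Both choices select on total signal, which grows with width, so peaks of low coverage are kept only when wide. Mean signal per covered base was 6.06 and 4.6 in Dis3 cKO lists 1 and 3, and 17.7, 11.5 and 12.6 in control. These 2 comparisons therefore cannot separate a change in width from the choice of peaks. The widest single peak measured 60232, 64422 and 54365 bp in the control lists and 68197, 18023 and 87278 bp in the Dis3 cKO lists.

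Peaks of the same rank were weaker in Dis3 cKO lists 1 and 3. The peak ranked 1000 by total signal had 24188, 20156 and 20840 in the control lists and 16320, 21365 and 13289 in the Dis3 cKO lists. The median total signal of all peaks was 10428, 6522 and 7331 in control and 3188, 7666 and 2350 in Dis3 cKO (log2 difference -1.04, exact permutation p = 0.3). The mean signal per covered base was 17.7, 11.5 and 12.6 in control and 6.06, 13 and 4.6 in Dis3 cKO. Summed over all peaks and in units of 1000000, the signal was 235, 279 and 266 in control and 350, 270 and 363 in Dis3 cKO (log2 difference 0.33, exact permutation p = 0.2). That order did not hold once the lists were made alike: the log2 difference was 0.0067 with the common floor, and with equal numbers of peaks the sums were 235, 212 and 219 against 169, 225 and 143 (-0.33, exact permutation p = 0.3). In Dis3 cKO lists 1 and 3 the signal in peaks was thus spread over more and weaker peaks, and list 2 stood with the controls in each of these measures.

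The regions where all 6 lists have a peak allow signal to be compared at the same places. The union of the lists had 226549 regions, of which 1281 were in all 6. The total signal of a region in a list is the sum of the peaks that overlap it. Its median over the 1281 regions was 20234, 20296 and 18306 in control and 15837, 17518 and 14061 in Dis3 cKO, so that every Dis3 cKO list, list 2 included, lay below every control list. The log2 difference of the medians was -0.32 (exact permutation p = 0.1, the smallest this design allows), and it was between -0.38 and -0.33 with the common floor, with peaks above the pooled median signal and with equal numbers of peaks, each without overlap. This measure was chosen after the data had been seen. The shared regions held 20.2%, 16.0% and 16.3% of the signal of the control lists and 10.8%, 15.6% and 8.71% of that of the Dis3 cKO lists. Reads were sampled to a fixed number per library, so the signal is relative to the reads sampled. It counts only called peaks, so it also depends on how much of a region each list called. Fewer polymerase molecules, fewer oocytes in a pool and a difference in peak calling cannot be told apart.

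Single shared regions moved both ways. The signal was lower in every Dis3 cKO list than in every control list for 211 of the 1281 regions (16.5%) and higher for 55 (4.29%). No control list can hold a value below 1869 here, whereas Dis3 cKO lists 1 and 3 can, which favours lower values in Dis3 cKO. These counts were not repeated with the common floor. With each list divided by its median over these regions, which itself sets the typical difference to about 0, 104 (8.12%) were lower and 115 (8.98%) higher. Of the 1281 regions, 435 had a mean log2 difference above 0.

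Among the strongest shared regions was the cluster of 5S ribosomal RNA genes, repeats transcribed by RNA polymerase III, at chr8:123537179-123625203 (mm10). Its total signal was 793096, 749704 and 764361 in control and 877772, 777260 and 659497 in Dis3 cKO, and the groups overlapped. The Sfi1 region, chr11:3149486-3199710, ranged from 551408 to 1187413 in control and from 656290 to 1037510 in Dis3 cKO. Sfi1 encodes a centrin-binding protein, and like the 5S genes it lies in repeated sequence, where the counting of reads that match several copies is not stated. Dnmt1, the maintenance DNA methyltransferase that oocytes store in large amounts, held a region of 849458, 732952 and 624509 in control and 524485, 610172 and 388525 in Dis3 cKO at chr9:20903240-20950737, without overlap. Nlrp5, a subunit of the subcortical maternal complex that oocytes need for the first divisions of the embryo, had 623303, 369268 and 536460 against 371111, 462262 and 271680 at chr7:23399094-23432962, with overlap. The region over Sp110 and Sp140, interferon-induced genes of a repeated cluster on chromosome 1, ran the other way at chr1:85575816-85601953, with 271933, 239517 and 268305 in control and 500053, 563362 and 456109 in Dis3 cKO. The adjacent region over the same genes, chr1:85602684-85612135, had 140626, 106819 and 123941 against 172955, 167037 and 135446, with overlap.

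The shared regions with the lowest Dis3 cKO signal relative to control included parts of Smarca2, Ogt, Arid1b and Htt. These regions were taken by the size of their difference, so the values are a description. Smarca2, an ATPase of SWI/SNF chromatin remodelling complexes, had a region at chr19:26770275-26777590 with 79288, 49078 and 90960 in control and 12623, 4890 and 20505 in Dis3 cKO (log2 difference -2.71). Ogt, the enzyme that attaches N-acetylglucosamine to nuclear and cytoplasmic proteins, had 23434, 11279 and 45775 against 3442, 4458 and 2983 at chrX:101670469-101673079 (-2.68). Arid1b, another SWI/SNF subunit, had 18237, 17683 and 34323 against 2909, 8352 and 2366 at chr17:5065359-5067858 (-2.53). The region over Htt, the huntingtin gene, and Msantd1 had 237213, 198727 and 75903 against 37082, 10993 and 51647 at chr5:34903011-34917210 (-2.47). In each of these 4 regions the groups did not overlap. The values of Dis3 cKO list 3 at Ogt and Arid1b lie below 3002, the lowest signal that control list 1 holds. Among the regions taken for the largest difference in the other direction was one over Gm7592, Gm2666 and Gm2427 at chr1:85497627-85507775, with 17552, 14914 and 26508 against 57546, 73529 and 65859.

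**Figure D2:**
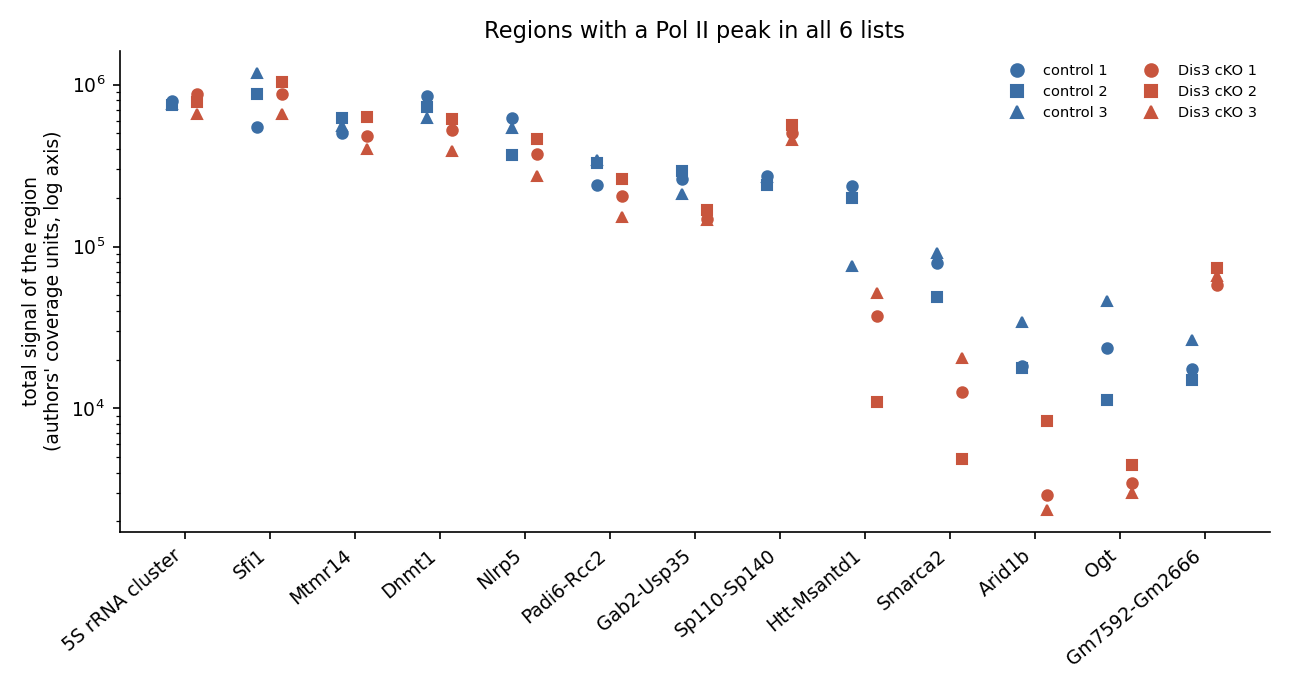
Total signal (logarithmic axis) in each of the 6 lists for named regions that have a peak in every list, one point per library. The groups overlap in the 5S cluster, Sfi1, Mtmr14 and Nlrp5, lie lower in Dis3 cKO at Dnmt1, Htt, Smarca2, Arid1b and Ogt, and lie higher at Sp110-Sp140 and Gm7592-Gm2666.

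Outside the shared regions the lists had little in common. Of the union, 142108 regions (62.7%) were in 1 Dis3 cKO list alone and 35885 in 1 control list alone. Regions seen in no other list made up 41.3%, 45.8% and 47.9% of the control lists and 60.8%, 45.3% and 68.7% of the Dis3 cKO lists. The overlap of 2 lists in bases, as a share of the bases either covers, had a median of 6.80% between control lists, 6.57% between Dis3 cKO lists and 5.89% between the groups. The highest value, 9.82%, was that of Dis3 cKO lists 1 and 3. At equal peak numbers the medians were 7.19%, 8.00% and 7.08%.

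Covered bases lay less in genes in Dis3 cKO. Annotated genes take up 45.8% of the genome span and held 76.2%, 75.7% and 74.3% of the covered length in control and 69.3%, 72.7% and 68.5% in Dis3 cKO. Every Dis3 cKO list was below every control list, by 5.24 percentage points on average (exact permutation p = 0.1, the smallest this design allows). With the common floor the shares were 76.2%, 76.9% and 75.1% against 74.4%, 73.8% and 74.5%, still without overlap and with a difference of -1.86 points (exact permutation p = 0.1). At equal peak numbers the groups overlapped, and the difference was -1.10 points (exact permutation p = 0.4). This measure too was chosen after the data had been seen.

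Transcription start sites held few of the peaks. The annotation used here has no start on chromosome 18, and shares are of the peaks on chromosomes with a start. Peaks within 1 kb of a start made up 4.06%, 4.13% and 3.66% of the control lists and 3.46%, 4.19% and 3.61% of the Dis3 cKO lists (a difference of -0.20 percentage points, exact permutation p = 0.6). With the common floor the order was the reverse and the groups did not overlap (0.38 points, exact permutation p = 0.1). Around 17492 protein-coding starts, the covered share of bases at the start was 0.858%, 1.79% and 1.19% in control and 2.92%, 1.43% and 4.16% in Dis3 cKO. It was larger 10 to 20 kb downstream of the start, at 1.29%, 2.31% and 1.88% in control and 5.15%, 2.11% and 6.42% in Dis3 cKO, in each of the 6 lists. All 27025 genes with a start, not only the protein-coding ones, have a median length of 13 kb, so these bases can lie past the end of the gene. How often they do so for the protein-coding starts was not measured. At 10 to 20 kb before the start it was 0.714%, 1.38% and 1.12% against 3.33%, 1.33% and 4.58%. In Dis3 cKO lists 1 and 3 the bases before the start were thus covered more than the start itself, and in the other 4 lists less.

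The spread over chromosomes was close to that of the controls. Gene-rich chromosome 11 took 1.48 to 1.57 times its share of the genome span in control and 1.39 to 1.43 times in Dis3 cKO, and chromosome 17 took 1.48 to 1.55 and 1.25 to 1.49 times. Gene-poor chromosome 3 took 0.579 to 0.624 and 0.601 to 0.691 times. Shares did not overlap between the groups for 4 of 21 chromosomes that were higher in Dis3 cKO (19%; 1, 4, 7 and Y) and for 3 that were lower (14.3%; 9, 11 and 15). With the common floor 3 of 21 were higher (14.3%; 1, 4 and 7) and 2 lower (9.52%; 2 and 9). With equal numbers of peaks 3 of 21 were higher (14.3%, chromosomes 1, 4 and 7) and 4 lower (19%, chromosomes 2, 9, 12 and 19). For chromosome 11 the groups overlapped at equal numbers (1.5 to 1.67 times in control and 1.51 to 1.59 in Dis3 cKO). They also did with the common floor (1.5 to 1.6 and 1.45 to 1.53 times). Chromosomes 1, 4 and 7 were higher and chromosome 9 lower with the deposited peaks, with the common floor and with equal numbers of peaks. Chromosome 1 had 6.80%, 6.67% and 6.26% of the covered length in control and 6.98%, 7.39% and 6.90% in Dis3 cKO. Chromosome 9 had 6.26%, 6.04% and 5.91% against 5.52%, 5.72% and 5.57%. Exact permutation tests give these chromosomes p = 0.1 at best, before any adjustment for 21 chromosomes.

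Chromosome X, of which the oocyte keeps both copies active, kept no fixed order of the groups. It held 2.87%, 2.80% and 3.39% of the covered length in control and 3.87%, 3.16% and 3.94% in Dis3 cKO, which is 0.446 to 0.540 and 0.503 to 0.627 times its share of the span. The difference was 0.63 percentage points (exact permutation p = 0.2). With equal numbers of peaks it had the opposite sign, at -0.34 points, with 0.292 to 0.458 times the span in control and 0.304 to 0.342 times in Dis3 cKO.

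**Figure D3:**
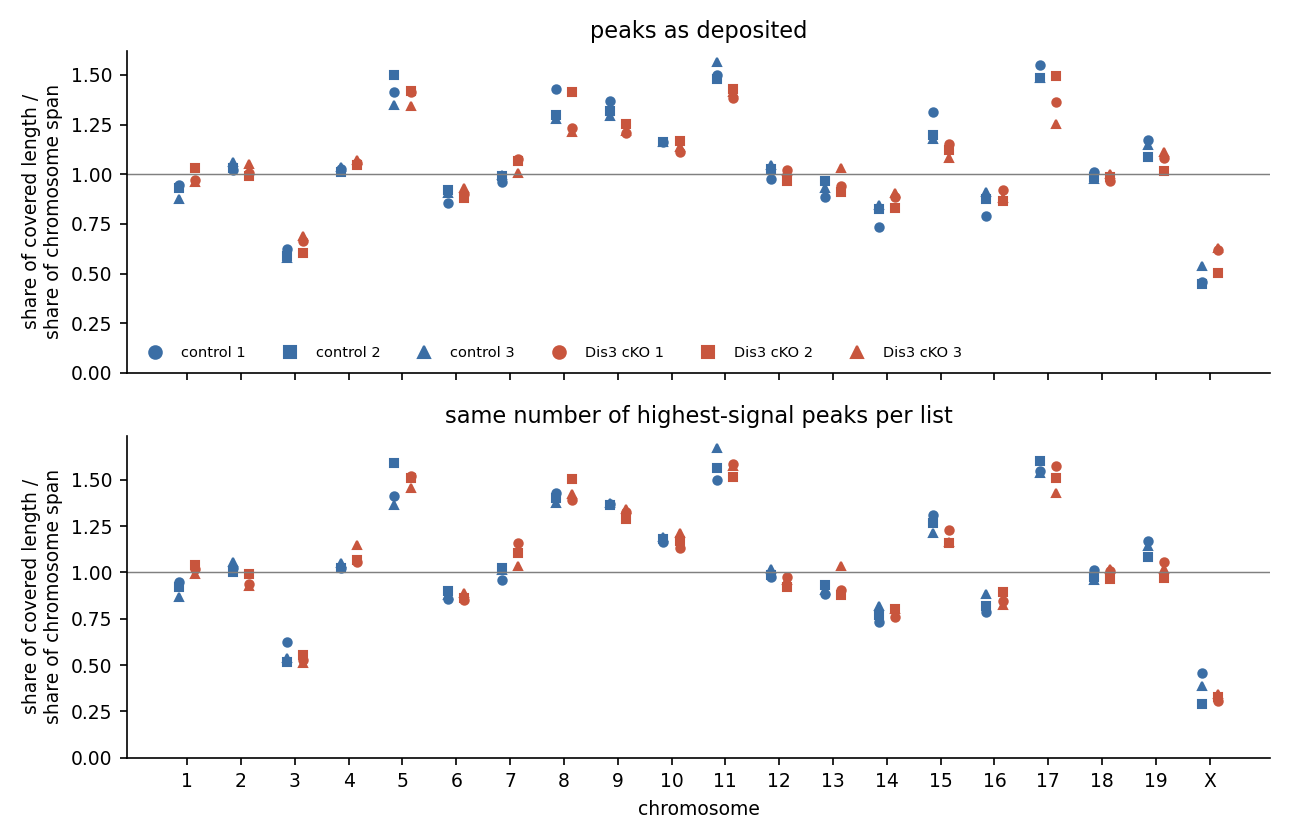
Share of covered length on each chromosome divided by its share of the genome span, one point per list, for the peaks as deposited (upper panel) and the same number of peaks per list (lower panel), with a line at 1. Chromosomes 11 and 17 lie above 1 and chromosomes 3 and X below 1 in all 6 lists of both panels. Chromosome Y is not plotted.

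Along the chromosomes, covered length in 1 Mb bins was higher in Dis3 cKO nearly throughout with the deposited peaks, without a bin passing the test. Of 2628 bins, 99.7% had a higher mean and none passed at an adjusted p under 0.05 (limma with Benjamini-Hochberg adjustment, 0.0% called), while 790 (30.1%) had an unadjusted p under 0.05. The lowest adjusted p was 0.14. The share of bins with a higher mean was 86.1% with the common floor, 63.1% with equal numbers of peaks and 40.1% after list medians were subtracted. Without Dis3 cKO list 2 the count of called bins was 2497. Only the Dis3 cKO lists with a lowest signal of 102 remain then, so genotype and lowest signal cannot be told apart in that count. With the common floor 22 bins rose and none fell, and with equal numbers of peaks 54 rose and 4 fell. After list medians were subtracted 20 rose and 95 fell. Of the bins called with the common floor, 13 were also called with equal numbers of peaks. The bin with the lowest adjusted p at equal numbers was chr16:10000001-11000000, which holds Clec16a and rose by 2.18 (SE 0.32, limma adjusted p 1.934e-08) on the log2 scale with a pseudocount of 1000 bp.

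Gene by gene none passed with the deposited peaks either. Of 12079 genes with covered bases in at least 2 lists, counting 1 kb before the start, 0 were called (limma adjusted p, 0.0% called), while 1944 had an unadjusted p under 0.05. Without Dis3 cKO list 2, 2676 genes were called, 2661 higher and 15 lower. Here too only the Dis3 cKO lists with a lowest signal of 102 remain, and genotype and lowest signal cannot be told apart. Covered length did not overlap between the groups for 2080 genes that were higher in Dis3 cKO (17.2%) and 42 that were lower (0.348%). Genes could enter these counts through 1 group alone, so the counts are a description. They include 605 genes covered in every Dis3 cKO list and no control list, and 12 the reverse, which cannot overlap. With equal numbers of peaks 7348 genes could be tested, and 607 (8.26%) were higher and 279 (3.80%) lower without overlap. These include 117 genes covered in every Dis3 cKO list and no control list, and 103 the reverse, which again cannot overlap. At equal numbers 3 genes passed the test. These 3 were Clec16a, Sned1 and Fcgbp, named after their values were seen. On simulated data the test called 18 of 200 genes changed 8-fold, against 198 of 200 bins. The simulated spread was that observed after the list means had been made equal. It therefore does not give the power of the test with the deposited peaks, where the list means differ.

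Clec16a, a membrane-associated regulator of mitophagy, had 3661, 8703 and 6768 covered bases in control and 50751, 24646 and 40131 in Dis3 cKO. It was higher in each Dis3 cKO list than in each control list, also in list 2. Its log2 difference was 2.60 (SE 0.55, limma adjusted p 0.238) with the deposited peaks, 2.40 (SE 0.44, adjusted p 0.041) with the common floor and 2.44 (SE 0.36, adjusted p 0.00099) with equal numbers of peaks. Sned1, an extracellular matrix protein, had 8302, 7209 and 3955 bases against 32359, 16249 and 35974 (2.30, SE 0.39, limma adjusted p 0.0063 with equal numbers of peaks). Fcgbp, a mucin-like secreted protein, had 0, 0 and 2159 bases against 13122, 4208 and 11336. With equal numbers of peaks it had 0 in every control list and 10622, 3258 and 8491 in Dis3 cKO, so it passed the filter through the Dis3 cKO lists alone and its fold and p rest on the pseudocount. RiboMinus RNA of these 3 genes did not pass the test over libraries (edgeR adjusted p 0.528, 0.328 and 0.173). Esr1, the oestrogen receptor alpha gene, also named after its values were seen, had 0, 0 and 1991 bases in control and 15270, 11231 and 21334 in Dis3 cKO. It was the 1 gene called higher with list medians subtracted, but it too passed the filter through the Dis3 cKO lists, and with 2 control lists at 0 its fold and p rest on the pseudocount. Its poly(A) RNA fell from 96.1 ± 54.1 CPM (SD, n = 8) to 55.4 ± 13.7 (n = 15), by 0.79 on the log2 scale (SE 0.22, edgeR adjusted p 0.00447).

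The next genes were chosen for the highest mean Pol II signal in the control lists, so a lower signal in Dis3 cKO is a description and has no test. Pik3cd, the delta catalytic subunit of phosphoinositide 3-kinase at chr4:149649168-149702566, had a total signal of 591065, 548453 and 601232 in control lists 1 to 3 and 296938, 271961 and 192060 in Dis3 cKO lists 1 to 3. The groups did not overlap, and at its start the signal was 90612, 114312 and 101286 in control and 23019, 26939 and 19746 in Dis3 cKO. Its RiboMinus RNA was 689 ± 45.5 CPM in control and 529 ± 80.5 in Dis3 cKO (SD, n = 8 libraries each), and its poly(A) RNA did not pass the test (log2 -0.05, SE 0.11, edgeR adjusted p 0.789). Myo10, an unconventional myosin of filopodia, had a total signal of 961710, 889499 and 821484 in control lists 1 to 3 and 610969, 484180 and 562369 in Dis3 cKO lists 1 to 3, also without overlap, although its covered length, 51.2, 70.2 and 50.3 kb in control and 72.6, 33.3 and 94.1 kb in Dis3 cKO, did overlap. Its poly(A) RNA did not pass either (log2 -0.33, SE 0.20, edgeR adjusted p 0.252).

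Dnmt1 had 818703, 691690 and 619058 in control lists 1 to 3 and 495981, 552113 and 365656 in Dis3 cKO lists 1 to 3, without overlap. Its poly(A) RNA fell from 2047 ± 268 CPM (SD, n = 8) to 1271 ± 340 (n = 15), by 0.69 on the log2 scale (SE 0.17, edgeR adjusted p 0.0016), and its RiboMinus RNA was 4565 ± 254 against 2578 ± 995 CPM (SD, n = 8 libraries each). Mtmr14, a phosphoinositide phosphatase, had overlapping signals of 483941, 608948 and 546866 in control lists 1 to 3 and 480216, 622489 and 404733 in Dis3 cKO lists 1 to 3, while its poly(A) RNA fell by 0.63 on the log2 scale (SE 0.15, edgeR adjusted p 0.00125). Hhat, the acyltransferase that palmitoylates Hedgehog proteins, had lower Pol II signal in every Dis3 cKO list, with 558132, 549442 and 535733 in control lists 1 to 3 and 375802, 369010 and 404805 in Dis3 cKO lists 1 to 3, and its poly(A) RNA rose by 0.87 on the log2 scale (SE 0.18, edgeR adjusted p 0.000112). When libraries were scaled to ERCC spike-in counts, the difference of Hhat was 0.58 (edgeR adjusted p 0.0499).

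Rph3a, a synaptic vesicle protein named here after its values were seen, was among the 5 genes that fell with list medians subtracted. It had 11895, 18976 and 12408 covered bases in control and 6822, 5454 and 8579 in Dis3 cKO, and a total signal of 279377, 224538 and 194190 in control lists 1 to 3 and 47353, 70773 and 37157 in Dis3 cKO lists 1 to 3. Its poly(A) RNA fell from 53.4 ± 17.5 CPM (SD, n = 8) to 32.2 ± 4.83 (n = 15), by 0.73 on the log2 scale (SE 0.16, edgeR adjusted p 0.000193).

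**Figure D4:**
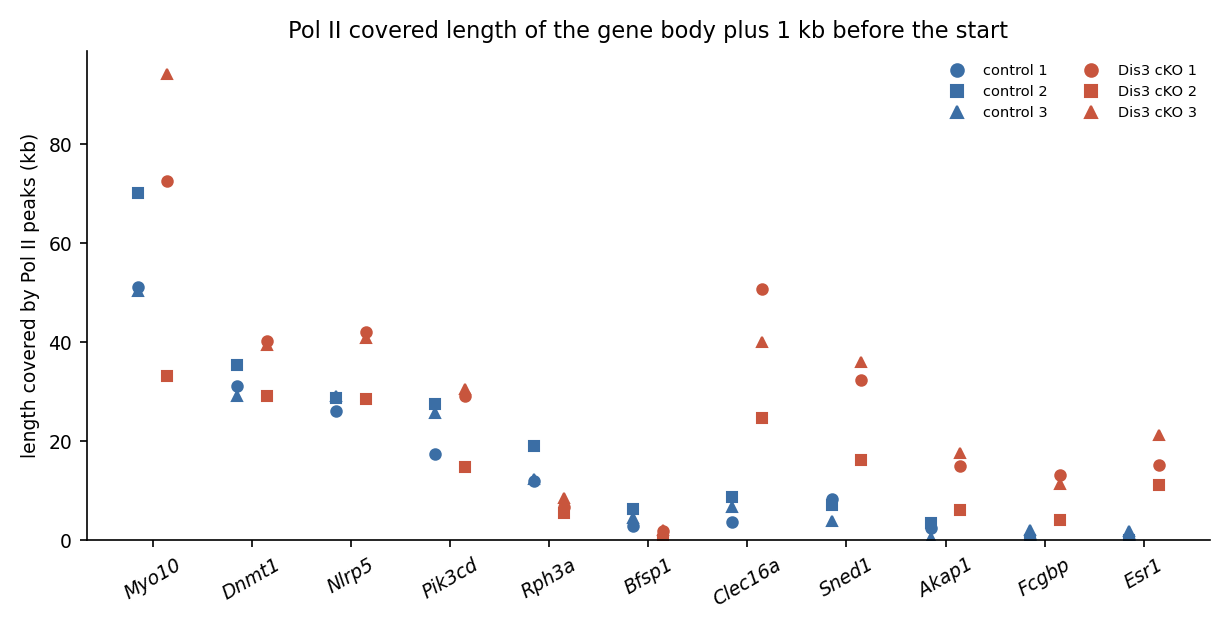
Length covered by Pol II peaks (kb) over the gene and 1 kb before its start, one point per list, for named genes. The groups overlap at Myo10, Dnmt1, Nlrp5 and Pik3cd, every Dis3 cKO list is lower at Rph3a and Bfsp1, and every one is higher at Clec16a, Sned1, Akap1, Fcgbp and Esr1.

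Regions in every list of one genotype and no list of the other were a small share of the union. They are called regions in that genotype alone here and below. The 1281 regions in all 6 lists were a small share too (0.565%), as most of the union was in a single list. Of the union, 95 regions (0.0419%) were in all control lists and no Dis3 cKO list, and 1864 (0.823%) were in all Dis3 cKO lists and no control list. With equal numbers of peaks the counts were 207 and 354. Without control list 1 the first count was 958. Without Dis3 cKO list 2, which leaves only the Dis3 cKO lists that reach far below the controls, the second was 13024. Genes overlapped 86.3% of the regions of the first kind and 73.0% of the second, against 87.0% of the regions in all 6 lists, 76.4% of the 48556 regions in 2 or more lists and 68.1% of the whole union. A start lay within 1 kb in 10.9%, 5.40%, 9.09%, 4.62% and 3.81% of those on chromosomes with an annotated start. Of the regions of the second kind, 78.1% had a peak in a p20 control list, against 84.2% of those of the first kind. The shares were 99.9% of those in all 6 lists, 67.5% of those in 2 or more lists and 34.8% of the union.

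Gene starts with a peak in every list of one genotype and no list of the other were also a small share. Of 27025 genes, a peak within 1 kb of the start was in all control lists and no Dis3 cKO list for 6 (0.0222%), in all Dis3 cKO lists and no control list for 95 (0.352%), and in all 6 lists for 61. With equal numbers of peaks the counts were 19, 26 and 34. Over the gene and 1 kb before it, 12 genes (0.0444%) had peaks in control alone and 605 (2.24%) in Dis3 cKO alone, and with equal numbers of peaks 103 and 117 did, so the imbalance was far smaller there. The start signal of Tmc4, a channel-like transmembrane protein, was 15173, 10744 and 8442 in control and 0 in each Dis3 cKO list. That of Slc25a18, a mitochondrial glutamate carrier, was 16504, 8913 and 10101 in control and 0 in Dis3 cKO. That of Akap1, which anchors protein kinase A at mitochondria, was 0 in control and 14669, 14385 and 14720 in Dis3 cKO. That of Ogg1, which excises oxidised guanine from DNA, was 0 in control and 12990, 21586 and 10033 in Dis3 cKO.

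The sequence before the start is printed for 5 genes, since the data bear on it in 3 ways. Peaks overlapped the printed bases in all 6 lists at Nlrp5 and Tle6, subunits of the same maternal complex. They did so in Dis3 cKO lists alone at Akap1 (3 of 3 lists) and Zp3 (2 of 3), and in control lists alone at Tmc4 (3 of 3). Each line gives the 250 bases before the start in the direction of transcription, from RefSeq on GRCm38.p6 (mm10). Capitals mark CACGTG and CAGGTG, spellings of the E-box that basic helix-loop-helix factors bind, and TATAAA, the core of the TATA box, each searched on both strands, so that TTTATA is TATAAA on the other strand. Where RefSeq gives a gene several starts, the one with the highest Pol II signal summed over the 6 lists is shown.
Nlrp5, chr7:23403852-23404101, plus strand: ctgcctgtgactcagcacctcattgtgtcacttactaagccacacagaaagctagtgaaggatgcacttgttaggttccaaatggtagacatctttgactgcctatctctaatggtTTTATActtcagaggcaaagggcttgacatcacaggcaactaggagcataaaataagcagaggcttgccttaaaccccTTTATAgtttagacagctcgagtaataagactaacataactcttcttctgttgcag
Tle6, chr10:81597368-81597617, minus strand: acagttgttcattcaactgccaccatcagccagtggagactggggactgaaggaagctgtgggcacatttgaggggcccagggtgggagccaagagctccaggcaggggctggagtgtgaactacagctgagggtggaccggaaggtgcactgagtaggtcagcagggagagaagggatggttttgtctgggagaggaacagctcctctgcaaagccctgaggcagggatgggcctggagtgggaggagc
Zp3, chr5:135979855-135980104, plus strand: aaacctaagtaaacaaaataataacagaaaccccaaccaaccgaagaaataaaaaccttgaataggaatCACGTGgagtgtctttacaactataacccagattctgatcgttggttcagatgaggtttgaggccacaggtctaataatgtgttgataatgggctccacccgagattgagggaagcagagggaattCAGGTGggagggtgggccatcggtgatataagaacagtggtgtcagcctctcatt
Akap1, chr11:88851504-88851753, minus strand: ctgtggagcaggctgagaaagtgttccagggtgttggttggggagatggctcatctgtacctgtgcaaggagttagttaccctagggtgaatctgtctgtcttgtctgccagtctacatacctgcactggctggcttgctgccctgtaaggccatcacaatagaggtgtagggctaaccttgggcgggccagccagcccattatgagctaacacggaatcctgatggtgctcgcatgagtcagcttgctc
Tmc4, chr7:3677554-3677803, minus strand: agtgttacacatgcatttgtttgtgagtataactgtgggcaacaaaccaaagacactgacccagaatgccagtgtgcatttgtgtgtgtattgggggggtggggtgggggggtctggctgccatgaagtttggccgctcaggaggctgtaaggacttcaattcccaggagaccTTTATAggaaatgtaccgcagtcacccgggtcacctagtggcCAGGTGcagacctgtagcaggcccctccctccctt
Of 32851 such windows in RefSeq, 6.02% hold CACGTG, 17.2% hold CAGGTG and 12.4% hold TATAAA. A match describes the letters only, and Tle6 and Akap1 have none of the 3 motifs in this window.

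The start signal of Nlrp5 was 40219, 25161 and 69178 in control and 76024, 66023 and 29976 in Dis3 cKO, and that of Tle6 was 3568, 12711 and 8626 against 10314, 8444 and 4760. In both genes the groups overlapped. The poly(A) RNA of Nlrp5 and Tle6 did not pass the test (log2 -0.26 and -0.51, SE 0.15 and 0.24, edgeR adjusted p 0.22 and 0.135). Their RiboMinus RNA was 785 ± 99.3 and 1002 ± 97.5 CPM in control and 592 ± 47.2 and 646 ± 63.6 CPM in Dis3 cKO (SD, n = 8 libraries each).

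The strongest signal found in Dis3 cKO alone lay before Zp3, which encodes the zona pellucida protein that binds sperm. The region with peaks in the 3 Dis3 cKO lists and no control list is chr5:135973679-135978671 (4993 bp), which begins inside the first bases of Ssc4d, a scavenger receptor gene on the minus strand (chr5:135960220-135974535). Its total signal was 0 in each control list and 205080, 322722 and 214562 in Dis3 cKO. Zp3 starts downstream of it on the plus strand (chr5:135980105-135988624). To describe the whole interval up to that start, the region was extended to chr5:135973679-135980104 (6426 bp), which takes in further Dis3 cKO peaks and 1 peak of control list 3. The last Dis3 cKO peaks before the start ended at positions 135979925, 135979944 and 135979733, short of it. Peaks covered 0%, 0% and 2.85% of this stretch in the control lists and 94.9%, 82.2% and 93.1% in the Dis3 cKO lists. The total signal was 0, 0 and 3467 in control and 257767, 349215 and 243428 in Dis3 cKO. Its strongest peak ranked 7, 2 and 7 among all peaks of the 3 Dis3 cKO lists. The peak maxima were 114, 216 and 88, so list 2, which had few weak peaks, was the highest here.

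On both sides of this stretch the groups overlapped. In the 10 kb before it the total signal was 0, 7369 and 12498 in control and 20695, 0 and 5706 in Dis3 cKO. In the 10 kb from the Zp3 start, which include the whole gene, it was 0, 36210 and 18837 against 14521, 26767 and 31769. In p20 control lists the stretch was covered to 16.0%, 0% and 0%. The RiboMinus RNA of Zp3 was 802 ± 116 CPM in control and 467 ± 40.2 in Dis3 cKO (SD, n = 8 libraries each), and its poly(A) RNA did not pass the test (log2 -0.59, SE 0.24, edgeR adjusted p 0.0687). Ssc4d did not pass over RiboMinus libraries (log2 -0.05, edgeR adjusted p 0.818). Sequence before Zp3 is widely used to drive Cre in oocytes. The labels do not name the driver, and where such a transgene is present its reads and those of the locus cannot be told apart in these lists.

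By the lowest of the 3 Dis3 cKO signals, the next regions found in Dis3 cKO alone were far weaker. A region at chr9:60942638-60947388, in no annotated gene, had 21829, 22259 and 25957, one in Gm46328 at chr12:54398780-54402133 had 18583, 34080 and 19648, and one in Ndrg4 at chr8:95711162-95714459 had 22609, 18081 and 27127. After them came Mt1, a metal-binding metallothionein. The Mt1 region, chr8:94179337-94180472, covers the 3′ part of Mt1 (chr8:94178883-94180327, plus strand) and the bases after its end, and it lies within 1 kb of the start only because the gene is short. Its total signal was 0 in each control list and 22227, 16581 and 25616 in Dis3 cKO, and its peak ranked 446, 2170 and 171. No p20 control list had a peak at Mt1, whereas 3, 1 and 3 of the 3 p20 lists had one in the other 3 regions. Mt1 RNA did not pass the test (RiboMinus log2 0.48, SE 0.85, edgeR adjusted p 0.718). The labels do not name the Cre driver, and whether reads of a transgene add to the Mt1 region was not tested. Where present, such reads and those of the locus cannot be told apart in these lists.

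Gene groups were read by how many members had covered bases. Among 20 measured genes of the Pol II machinery (subunits, initiation and elongation factors), 6, 8 and 6 had covered bases in control and 16, 11 and 14 in Dis3 cKO, and with equal numbers of peaks 6, 7 and 5 against 9, 11 and 10. The groups did not overlap in either case. Over all 27025 genes the counts were 5098, 7263 and 6681 against 11505, 7076 and 13498, and with equal numbers 5098, 5141 and 5222 against 5276, 5557 and 5321. Polr2c, a core Pol II subunit, had start signals of 0 in control and 8040, 11128 and 6807 in Dis3 cKO. Nelfb, a subunit of the factor that pauses Pol II, ran from 10810 to 22530 in control and from 5124 to 18879 in Dis3 cKO. None of the Pol II machinery genes passed the test of covered length (limma adjusted p).

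Among 17 measured exosome and cofactor genes, 8, 9 and 7 had covered bases in control and 12, 10 and 16 in Dis3 cKO, and with equal numbers 8, 4 and 6 against 4, 8 and 7. Among 63 cytosolic ribosomal protein genes the counts were 2, 13 and 10 against 22, 11 and 34, and with equal numbers 2, 10 and 6 against 10, 11 and 13. Among 62 replication-dependent histone genes, which are short and near-identical, they were 0, 1 and 2 against 10, 0 and 13, and with equal numbers 0, 0 and 2 against 1, 0 and 3. Among 22 Hox genes, which Polycomb silences, they were 0, 0 and 0 against 1, 0 and 2, and with equal numbers 0, 0 and 0 against 1, 0 and 0. Of 8 Polycomb genes 4, 5 and 4 had covered bases against 7, 5 and 6, and with equal numbers 4, 3 and 3 against 3, 4 and 2. With the deposited peaks, in the ribosomal, histone, Hox and Polycomb groups, Dis3 cKO list 2 lay inside the control range or at its edge. All the lists of genes were chosen with earlier results of these data known.

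Pol II coverage was set beside RNA from control oocytes to see what the lists report. Genes with a peak over the gene in all 3 control lists had a median of 53.6 CPM in control RiboMinus RNA (2869 genes), those with a peak in 1 or 2 lists 5.98 CPM (5952 genes) and those with none 0.0268 CPM (11721 genes). In poly(A) RNA the medians were 46.3, 8.76 and 0.0529 CPM. Longer genes have more room for a peak, and length was not taken into account. A peak at the start separated genes less, with 6.31, 6.0 and 0.356 CPM in RiboMinus RNA.

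Genes with Pol II over the gene in all 6 lists were more often lower than higher in Dis3 cKO RNA. In RiboMinus RNA, where 28.1% of 15334 genes passed the test over libraries (15.7% higher and 12.4% lower in Dis3 cKO) and none with counts summed per ID, 258 of 2335 such genes were higher (11%) and 574 lower (24.6%), with a median log2 difference of -0.075. Over all 10735 tested genes with an annotated start 14.4% were higher and 13.6% lower, with a median of 0.013. In poly(A) RNA, where 21.9% of 17389 genes passed (13.6% higher and 8.33% lower), 187 of 2375 were higher (7.87%) and 385 lower (16.2%), against 11.1% and 8.97% of 11739. Of 20 tested genes of the oocyte list 3 were higher and 11 lower over RiboMinus libraries, with a median of -0.35. Genes with peaks in all control lists also have more RNA, as given above, and the part of RNA level in these shares was not tested.

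Genes with a start peak in Dis3 cKO alone had RNA that was higher in some and lower in others. Of 63 tested in RiboMinus RNA, 13 were higher (20.6%) and 3 lower (4.76%) over libraries, against 14.4% and 13.6% of all genes, with a median log2 difference of 0.12. Of 67 tested in poly(A) RNA 6 were higher (8.96%) and 5 lower (7.46%), against 11.1% and 8.97%. With equal numbers of peaks 17 such genes were tested in RiboMinus RNA, of which 4 were higher and 4 lower. With ERCC scaling the RiboMinus median was -0.38, where the median of all genes was -0.52. Of 380 tested genes with covered bases over the gene in Dis3 cKO alone, 53 were higher and 46 lower in RiboMinus RNA. Ticam1, an adaptor of Toll-like receptors, had 0.746 ± 0.413 CPM in control and 2.14 ± 1.12 in Dis3 cKO RiboMinus RNA (SD, n = 8 libraries each), and its poly(A) RNA did not pass the test (edgeR adjusted p 0.587). Akap1 poly(A) RNA fell from 206 ± 22.1 CPM (SD, n = 8) to 150.01 ± 24.0 (n = 15), by 0.46 on the log2 scale (SE 0.16, edgeR adjusted p 0.0235).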

How the data were processed

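Pol II CUT&Tag reads were sampled to 3000000 per library without removing duplicates and deposited as 1 peak list per library, per the series' design text; the submitters' processing notes name mm10 and SEACR. Peak total signal and maximum signal are deposited as the authors' unscaled coverage. The SEACR threshold and any use of IgG are not given in the sources used here, and IgG libraries were not analysed here. RNA files hold the authors' deposited counts per gene (16 RiboMinus libraries of 16104881 to 35429028 counts, 23 poly(A) GV libraries of 4843964 to 10310183), with aligner, counter and strand use for them not tied to a step by the notes, which name STAR 2.7.2a and HTSeq 0.9.1.

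From these, list measures were compared with exact permutation tests over samples, and covered length per 1 Mb bin and per gene (log2 with pseudocounts of 1000 and 100 bp, covered in at least 2 lists) with limma 3.58.1. RNA was tested with edgeR 4.0.16 quasi-likelihood (TMM, filterByExpr) in R 4.3.3, with DESeq2 1.42.0 as alternative. All adjusted p-values are Benjamini-Hochberg with a threshold of 0.05, and tests are 2-sided. Regions of 2 lists match at 1 shared base, and starts are those of RefSeq GRCm38.p6 within 1 kb. The starts used include none on chromosome 18, so its genes enter neither the Pol II gene tests and counts nor the start shares. RNA was matched to 20542 of 27025 genes with a start (76.0%) in RiboMinus files. Scripts were tested on simulated data: edgeR called 176 of 200 genes changed 4-fold in the RiboMinus design. Genes were named by mean signal in the control lists (the 10 highest), by start peaks found in one group alone (up to 10 each, ranked by the lowest signal) and from fixed lists; others are marked. Members and lists were chosen with earlier results of these data known. Alternatives were a common floor, peaks above the pooled median, equal peak numbers, joined peaks, other start windows, pseudocounts and overlaps, ERCC scaling, a replicate block and leaving out each library; RiboMinus counts summed per ID (2 per group) were added after seeing the data. Samples were not paired by replicate number in the main tests, and whether equal numbers share a preparation is not known. 1 shared region is not reported here.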

Additional observations from a re-analysis of the deposited data

Results flagged for a closer look

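Signal was also found in H3K27me3 lists that enter no comparison of the report. In the stretch before Zp3, 4 of 6 knockout lists (Dis3 cKO adult and dcKO p20) had an H3K27me3 peak and 0 of 6 control lists had one. Every knockout list holds more peaks (224934 to 299716, over 153 to 195 Mb) than any control list (87394 to 202628, over 66.8 to 152 Mb). Of all windows of the same length, 3.82% had a peak in at least 4 knockout and 0 control lists, and 0.21% the reverse. Dis3 cKO list 1 covered 45.3% of the stretch with a total signal of 7189, and the dcKO lists 1, 2 and 3 covered 6.91%, 30.4% and 56.8%. In the Mt1 region, 3 of 6 knockout lists had a peak, with total signals of 6271 in Dis3 cKO list 1 and 1934 and 6671 in dcKO lists 1 and 2, and 0 of 6 control lists had one. Of all windows of that length, 3.16% had a peak in at least 3 knockout and 0 control lists, and 0.313% the reverse. The stretch and the region were chosen from the Pol II lists, and the difference in H3K27me3 was not tested. Whether reads of a transgene add to the signal at either place was not tested either.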

How the results depend on the processing

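Of 184 alternative values, 133 were counted as kept, 32 as moved and 19 as reversed. For list measures and shared regions, kept means the same sign, so summed signal at 0.0067 with the common floor is among them. A replicate block leaves these differences unchanged by construction, and they too count as kept. For bins and genes, kept means that again none passed. For region counts it means a count near the main one, and for overlaps and RNA medians a value within the spread. The common floor, peaks above the pooled median signal and equal numbers of peaks reversed median width (log2 0.13, 0.23 and 0.33 against -0.05), the share of peaks at starts (0.38, 0.46 and 0.53 points against -0.20, and 0.37 with a 5 kb window) and the share on chromosome X (-0.24, -0.26 and -0.34 points against 0.63). The last 2 choices reversed summed signal (-0.17 and -0.33 against 0.33). Peak number is equal by construction at equal numbers and has no value there. Regions in control alone were 194, 228 and 207 under the 3 choices and 38 with at least 50% of the region covered, and those in Dis3 cKO alone 823, 525, 354 and 454. Overlap between the groups was 7.08% at equal numbers. Called bins numbered 115 with medians subtracted, 22 with the floor and 58 at equal numbers. Called genes numbered 2 with a 10 times larger pseudocount, 6 with medians subtracted, 1 with the floor, 3 at equal numbers and 5 when covered in at least 1 list.

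Leaving out each library in turn gave 0 to 2497 bins and 0 to 2676 genes, with the highest counts without Dis3 cKO list 2, and 1 gene without control list 3. It gave 127 to 958 regions in control alone and 2240 to 13024 in Dis3 cKO alone. The log2 differences ran from 0.89 to 1.9 for peak number, 0.87 to 1.83 for covered length, -1.53 to -0.68 for median signal and -0.51 to -0.25 for regions in all lists.

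The RiboMinus median of the genes that lost start peaks, -0.016, rests on 3 tested genes (4 in poly(A) RNA). It was -0.54 with ERCC scaling, 0.23 without an expression filter and 0.15 at equal numbers, where 14 genes enter. That of the genes that gained them, 0.12, was -0.38 with ERCC scaling and -2.54714e-05 for peaks anywhere in the gene. The poly(A) medians, 0.034 and 0.11, were -0.24 and -0.19 with ERCC scaling, and the first was -0.077 at equal numbers (14 genes). Control RNA levels of genes with start peaks in all controls, 6.31 and 9.44 CPM, were 53.6 and 46.3 CPM for peaks anywhere in the gene. The median of all genes lay at 0.026 and 0.036 with TMM and at -0.52 and -0.23 with ERCC scaling. With RiboMinus counts summed per ID, chosen after seeing the data, 0 genes were called against 4305 over libraries (edgeR, 2957 at an unadjusted p under 0.05), where each group has 2 samples in place of 8. The causes of the other changes were not tested.

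Same-numbered samples had correlations of 0.012, -0.004 and 0.032 between their deviations over 2628 bins, so pairing by number was not seen in this measure. The mean of each list was removed first, so pairing through effects on whole lists could not show. With a replicate block 0 bins and 0 genes were called, and peak number differed by 1.31 and covered length by 1.26 (sign-flip exact p 0.5, where 3 pairs cannot go below 0.25). In Dis3 cKO lists 1 and 3 up to 15.1% of peaks rest on a coverage of 3 or less, and no alternative varied the depth.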
